A study of Mus musculus with 60 samples.

Results

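Spindle carcinomas of mouse skin were compared by the lymph node status of their host, with 5 tumours of 4 node-positive mice set against 5 tumours of 5 node-negative mice. These 10 tumours of 9 mice were chosen by their labels alone (histology given as spindle, nodal status given as 1 or 0) out of 60 carcinomas of 55 mice. The labels do not spell out the code, and 1 was taken as node-positive and 0 as node-negative. Of 14 spindle carcinomas of 13 mice, 4 tumours of 4 mice had no nodal status and were left out of each comparison.

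All mice were FVBBX animals, the offspring of a cross between SPRET/Ei (Mus spretus) and FVB/N that was bred back to FVB/N, so that each carries its own mixture of SPRET/Ei and FVB/N alleles. All were treated on the back skin with the carcinogen DMBA and the tumour promoter TPA, and no group without treatment was part of the comparison. The node-positive mice were 2 females and 2 males, 2 of them with tumours labelled p53 mutant, and the node-negative mice were 2 females and 3 males, 1 with a p53 mutant tumour. All tumours were poorly differentiated except that of node-negative mouse 2, which was labelled moderately differentiated. The origin label was F1BSF1 for 3 and F1BSF3 for 1 of the node-positive mice, and F1BSF1 for 2, F1BSF3 for 2 and F1BSF4 for 1 of the node-negative mice. Origin was not used in any fit. Mice are numbered within their group, and node-positive mouse 3 gave 2 tumours, which were averaged before any test.

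Carcinoma cells reach the draining lymph node mainly through lymphatic vessels, and lymphatic growth factors, chemokines, proteases that open the matrix and loss of cell adhesion have all been studied as parts of this step. Spindle carcinomas of mouse skin are fibroblast-like tumours that arise from squamous cell carcinomas (SCCs) by loss of epithelial features. The stroma of a skin carcinoma also holds mast cells, macrophages, lymphocytes, blood and lymph vessels and remnants of fat, hair follicles and muscle, and RNA of all of these is read together with that of the tumour cells.

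Expression was read on Affymetrix mouse arrays as log2 RMA values, 1 array per tumour, on which a difference of 1 is a change by a factor of 2. Medians of the 10 arrays lay between 4.471 and 4.517, and a gene whose mean lay below them was at the dim end of the scale, so that the size of its difference is uncertain. Differences are given as node-positive minus node-negative with the standard error (SE) of limma.

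The labelled sex was matched by Xist and the Y-linked genes in 8 of the 9 mice. Node-positive mouse 3, labelled male, did not match in either tumour. Its tumour 1 had Xist at 10.56, below but close to the 11.27 to 12.16 of the matching females, together with a Y-linked mean of 5.92, within the 5.74 to 6.74 of the matching males. Its tumour 2 had Xist at 5.49, as in males, and a Y-linked mean of 3.53, between the sexes. These 2 tumours were also the least alike of all 45 pairs of arrays (Pearson's r = 0.800 across genes, which are not independent replicates). Tumour 2 had the highest 3′ minus 5′ difference of the Gapdh control probe sets among the 10 arrays, 0.54 against −0.03 to 0.45 on the others. Values of node-positive mouse 3 are therefore given by tumour where a result turns on them.

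The 10 tumours separated by the study's own label tumor_class, not by nodal status. The labels do not say how tumor_class was assigned, or whether these arrays were used for it, so the separation is given as a description. Class 2 held the tumours of node-positive mice 1 and 2, tumour 2 of node-positive mouse 3 and those of node-negative mice 1 and 2, and class 1 held the other 5. The first principal component, with 43.7% of the variance, had negative scores for all class 2 tumours and positive scores for all class 1 tumours. The median correlation between arrays was 0.889 within a nodal status and 0.904 across it, but 0.923 within a class and 0.860 across it. The mean of 30 genes of epithelial adhesion lay between 8.01 and 9.31 in class 2 and between 4.80 and 6.68 in class 1, so that the label spindle covered tumours with high and with low epithelial transcripts. In SCC mice the same mean ranged from 4.24 to 9.38. The mean of 30 mesenchymal genes (Vim, Fn1 and collagens among them) was high throughout, between 9.42 and 11.68.

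**Figure D1:**
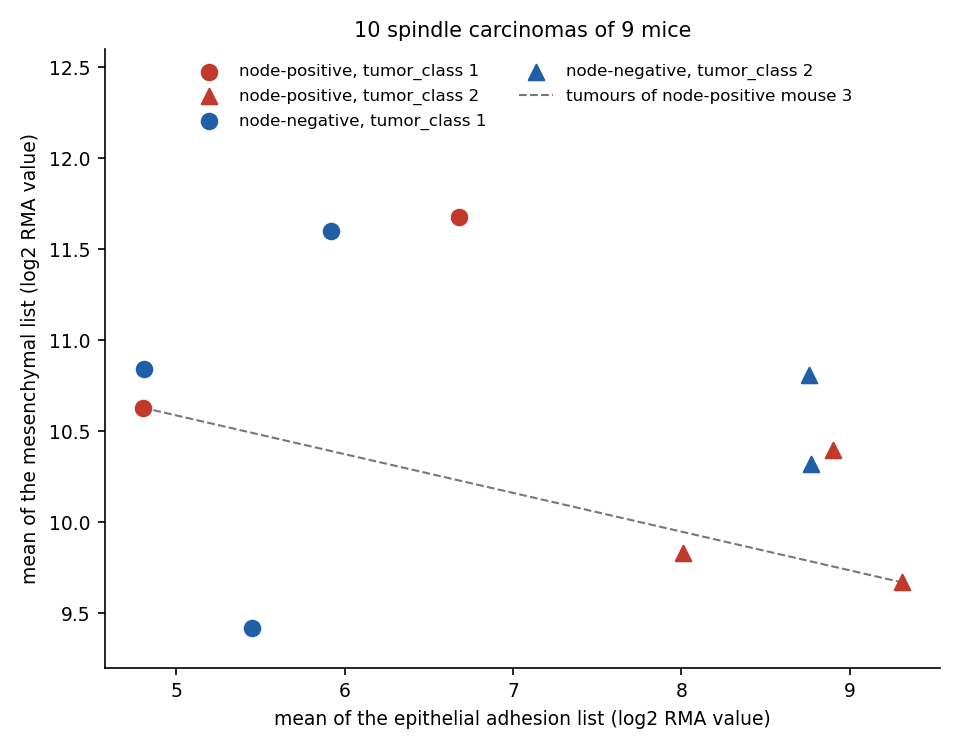
Each of the 10 spindle carcinomas is placed by its mean over the epithelial adhesion list (x axis) and over the mesenchymal list (y axis), both as log2 RMA values, coloured by nodal status and shaped by tumor_class. Class 2 lies at 8.01 or more on the x axis and class 1 at 6.68 or less, each class holds both nodal statuses, and the dashed line joins the 2 tumours of node-positive mouse 3 at 9.31 and 4.80.

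No gene passed the test between node-positive and node-negative spindle carcinomas (0 of 12790, 0%, limma with Benjamini-Hochberg adjustment, smallest adjusted p = 0.997). At an unadjusted limma p under 0.05, 269 genes (2.10%) were higher and 197 (1.54%) lower in node-positive tumours, and a SAM-type statistic with permuted labels also called 0 genes. The difference was above 0 for 6480 genes (50.7%). The groups did not overlap for 76 genes with higher values in every node-positive mouse (0.594%) and for 71 with lower values (0.555%). With a difference of at least 1 as well, 6 genes (0.0469%) were higher and 17 (0.133%) lower. In the median gene the 95% confidence interval reached 0.53 to each side of the difference, which is the precision that 4 against 5 mice gave before any adjustment. Every gene named below is thus given by its values and its place in the ranking, and none passed adjustment over all genes.

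The 6 genes with the highest ranking in node-positive tumours were Runx3, Supt20, Tuft1, Stbd1, Mob3b and Abcc3. Runx3, a transcription factor of the Runt family with roles in T cells and in TGF-β signalling, had values of 6.57, 6.85, 7.05 and 6.71 in node-positive mice, against 5.60, 5.82, 5.34, 5.67 and 6.17 in node-negative mice. All node-positive mice lay above all node-negative mice, by 1.07 ± 0.19 in the mean (SE, 2.10-fold, limma p = 0.00027). A second probe set of Runx3 differed by only 0.13. Supt20, a subunit of the SAGA coactivator complex, read 8.55, 8.22, 8.31 and 8.37 in node-positive mice, against 6.87, 6.53, 6.98, 7.72 and 7.64 in node-negative mice (difference 1.21 ± 0.26, limma p = 0.000936). The node-positive mice were close together and the node-negative mice spread over more than 1 unit. Its 6 other probe sets differed by 0.19 to 0.77, in the same direction.

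Tuft1, which encodes tuftelin, a protein first described in tooth enamel, had values of 8.58, 8.33, 7.81 and 7.66 in node-positive mice and of 7.50, 7.13, 6.54, 6.59 and 6.59 in node-negative mice (1.23 ± 0.27). Stbd1, which binds glycogen, read 6.24, 6.25, 6.18 and 5.94 in node-positive mice, against 5.05, 3.73, 3.32, 4.96 and 5.03 in node-negative mice. Its difference, 1.73 ± 0.38, was the largest of the 6, but its node-negative mean lay below the array medians. Mob3b, a member of the MOB family of kinase activators, was at 5.68 to 7.19 in node-positive mice and at 4.83 to 5.42 in node-negative mice (1.17 ± 0.30). Abcc3, an efflux transporter of organic anions, was at 6.95 to 8.22 in node-positive mice and at 5.48 to 6.84 in node-negative mice (1.26 ± 0.34). When both tumours of node-positive mouse 3 had to lie above the node-negative range, all of these except Tuft1 still did not overlap; tumour 1 of that mouse had Tuft1 at 7.38, under the 7.50 of node-negative mouse 1.

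The 10 genes with the highest ranking among those lower in node-positive tumours were Ms4a2, Samsn1, Cr2, Cd36, Fpr2, Osm, Lrg1, Tpsb2, Cma1 and Lipg, and 3 of them (Ms4a2, Tpsb2 and Cma1) are mast cell genes. Samsn1, an adaptor protein of haematopoietic cells, had values of 5.37, 4.99, 5.25 and 5.34 in node-positive mice, against 7.44, 6.25, 6.71, 5.97 and 6.99 in node-negative mice (−1.43 ± 0.29). The 2 tumours behind the value of node-positive mouse 3 stood at 6.33 and 4.17, so tumour 1 on its own lay inside the node-negative range. Cr2, the complement receptor of B cells and follicular dendritic cells, had the largest difference of the 10 (−2.07 ± 0.44, limma p = 0.000978). It read 3.97, 4.20, 4.10 and 3.72 in node-positive mice, at the dim end of the scale, against 6.16, 6.06, 6.97, 6.70 and 4.49 in node-negative mice.

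Cd36, a scavenger receptor for lipids found on macrophages, fat cells and small vessels, read 6.42, 6.31, 6.47 and 6.24 in node-positive mice, against 7.79, 7.79, 7.74, 9.48 and 7.42 in node-negative mice (−1.68 ± 0.38). The node-positive mice spanned only a narrow range, and node-negative mouse 4 stood well above its group. Its 2 other probe sets differed by −1.34 and −0.23. Fpr2, a formyl peptide receptor of neutrophils and macrophages, was at 6.69 to 7.43 in node-positive mice and at 7.85 to 9.40 in node-negative mice (−1.49 ± 0.35). Osm, which encodes the cytokine oncostatin M, was at 5.54 to 6.28 in node-positive mice and at 6.43 to 7.82 in node-negative mice (−1.17 ± 0.31). Lrg1, a secreted glycoprotein of neutrophils and activated endothelium, was at 7.29 to 8.58 in node-positive mice and at 8.69 to 10.36 in node-negative mice (−1.46 ± 0.39). Lipg, the endothelial lipase, was at 5.58 to 6.44 in node-positive mice and at 6.45 to 7.74 in node-negative mice (−1.04 ± 0.31), with a gap between its groups far smaller than the spread within either. Its 2 other probe sets differed by −0.8 and −0.02. With each tumour counted on its own, Cr2, Cd36, Osm and Lrg1 still did not overlap, and Samsn1, Fpr2 and Lipg did.

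**Figure D2:**
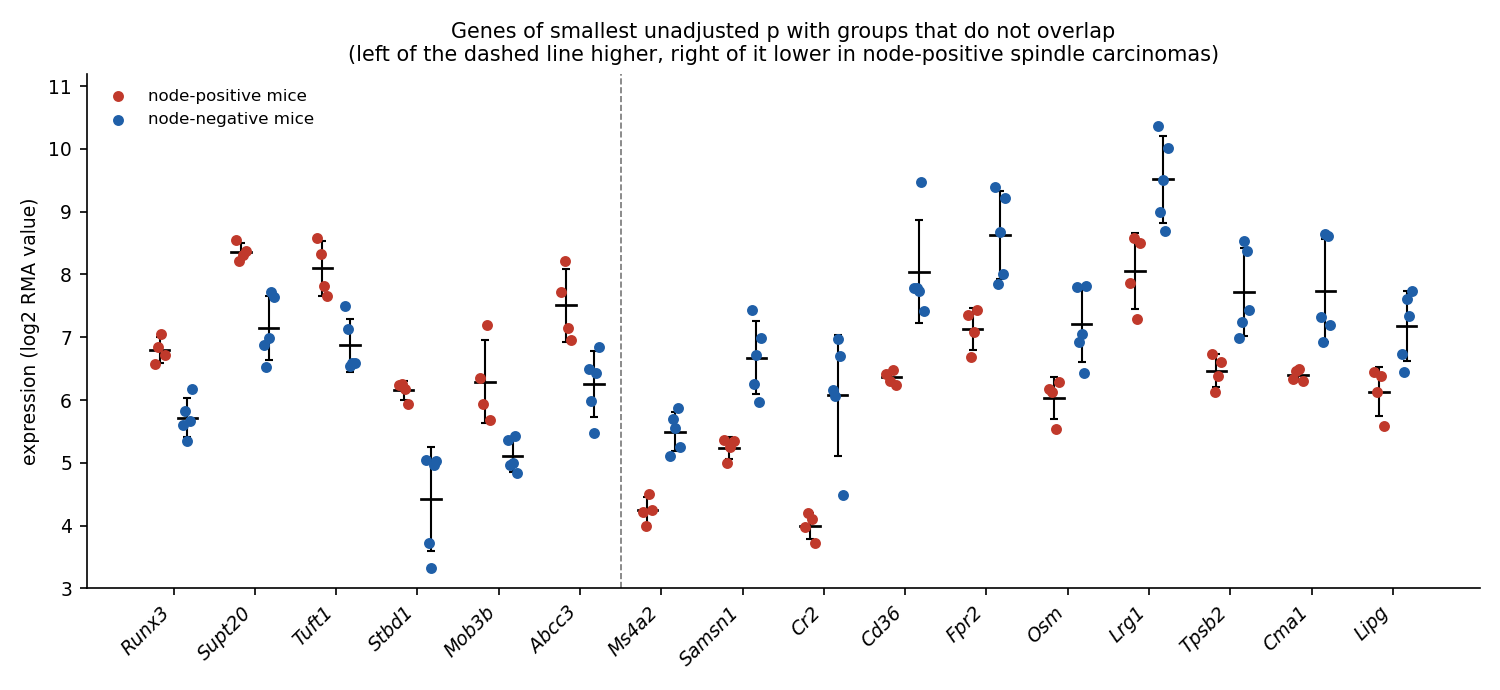
Expression (log2 RMA value, y axis) is shown for the 16 genes of smallest unadjusted p with groups that do not overlap and a difference of at least 1, with node-positive mice in red to the left of node-negative mice in blue for each gene. Points are mice, lines are means and bars are SDs (n = 4 and 5). Left of the dashed line every red point lies above every blue point, as with Runx3 at 6.57 or more against 6.17 or less, and right of it below.

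Of 37 gene lists, that of mast cells had the median difference farthest from 0. Mast cells are long-lived tissue cells that bind IgE, store proteases and histamine in granules and are plentiful in mouse skin. All 11 listed genes were tested, 9 had a negative difference, 7 were lower at an unadjusted limma p under 0.05 (1.54% of all genes were) and 5 were lower without overlap between the groups (0.555% of all genes). The median difference over the list was −1.26, against 0.004 over all genes. The list mean was 5.62, 5.58, 6.01 and 5.58 in node-positive mice, against 6.43, 6.72, 7.29, 6.43 and 6.10 in node-negative mice (5.70 ± 0.21 and 6.60 ± 0.45, SD). Each node-positive mouse lay below each node-negative mouse, although node-positive mouse 3 and node-negative mouse 5 differed by less than 0.1. In a bulk sample, fewer cells of a type and less RNA per cell cannot be told apart. The list was chosen with earlier results of these data known, and no gene of it passed adjustment over all genes.

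Of the subunits of the IgE receptor, Ms4a2, its β chain, had the smallest unadjusted p of all genes (limma p = 9.48e-05) and read 4.21, 3.99, 4.51 and 4.25 in node-positive mice, against 5.11, 5.69, 5.55, 5.87 and 5.25 in node-negative mice (−1.26 ± 0.19). Fcer1a, its IgE-binding α chain, read 4.03, 4.37, 4.62 and 3.95 in node-positive mice, against 5.48, 4.94, 8.15, 6.69 and 5.26 in node-negative mice (−1.86 ± 0.60, limma p = 0.0118). Node-negative mouse 3 had by far the highest Fcer1a, and the node-positive means of both genes lay below the array medians. Both still did not overlap when the 2 tumours of node-positive mouse 3 were counted on their own.

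The granule proteases of connective tissue mast cells followed the same order by mouse, but not by tumour. Cma1, a chymase, had values of 6.33, 6.46, 6.50 and 6.30 in node-positive mice, against 7.33, 6.93, 8.64, 8.62 and 7.20 in node-negative mice (−1.35 ± 0.38). Mcpt4, another chymase, read 5.36, 6.66, 6.07 and 6.43 in node-positive mice, against 7.11, 6.86, 8.51, 9.17 and 7.24 in node-negative mice (−1.65 ± 0.50). The tryptase Tpsb2 was at 6.13 to 6.74 in node-positive mice and at 6.98 to 8.54 in node-negative mice (−1.25 ± 0.34), and the carboxypeptidase Cpa3, which overlapped between the groups, was at 6.49 to 7.46 in node-positive mice and at 7.18 to 9.28 in node-negative mice (−1.39 ± 0.43). In node-positive mouse 3, tumour 1 had more of all 4 proteases than tumour 2: Cma1 stood at 7.30 in tumour 1 and 5.69 in tumour 2, Mcpt4 at 6.94 and 5.20, Tpsb2 at 7.49 and 5.29 and Cpa3 at 8.34 and 6.59. Tumour 1 on its own thus lay inside the node-negative range for each of them.

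The other 5 mast cell genes were outside the rule for named genes and are given, chosen after their values were seen, to complete the list. Hdc, which makes histamine, was at 5.87 to 7.37 in node-positive mice and at 6.63 to 9.27 in node-negative mice (−1.29 ± 0.54, limma p = 0.0405). Kit, the receptor for stem cell factor, which melanocytes also carry, showed a difference of 0.09 ± 0.27. Mcpt1 and Mcpt2, proteases of mucosal mast cells, differed by −0.18 ± 1.17 and 0.39 ± 1.00, and Mcpt8, a protease of basophils, by −0.13 ± 0.56. The intervals of the mucosal and basophil proteases were wide and held the list median (−2.80 to 2.45 for Mcpt1), while that of Kit ran from −0.52 to 0.70. The median of the list stayed between −1.35 and −0.78 in all 25 alternatives for which it could be computed. It was −1.22 without node-positive mouse 3, −1.15 and −1.28 with only tumour 1 or only tumour 2 of that mouse and −1.09 with tumor_class as a covariate and every tumour kept. Spindle carcinomas without nodal status had list means from 5.74 to 7.83, across the range of both groups.

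**Figure D3:**
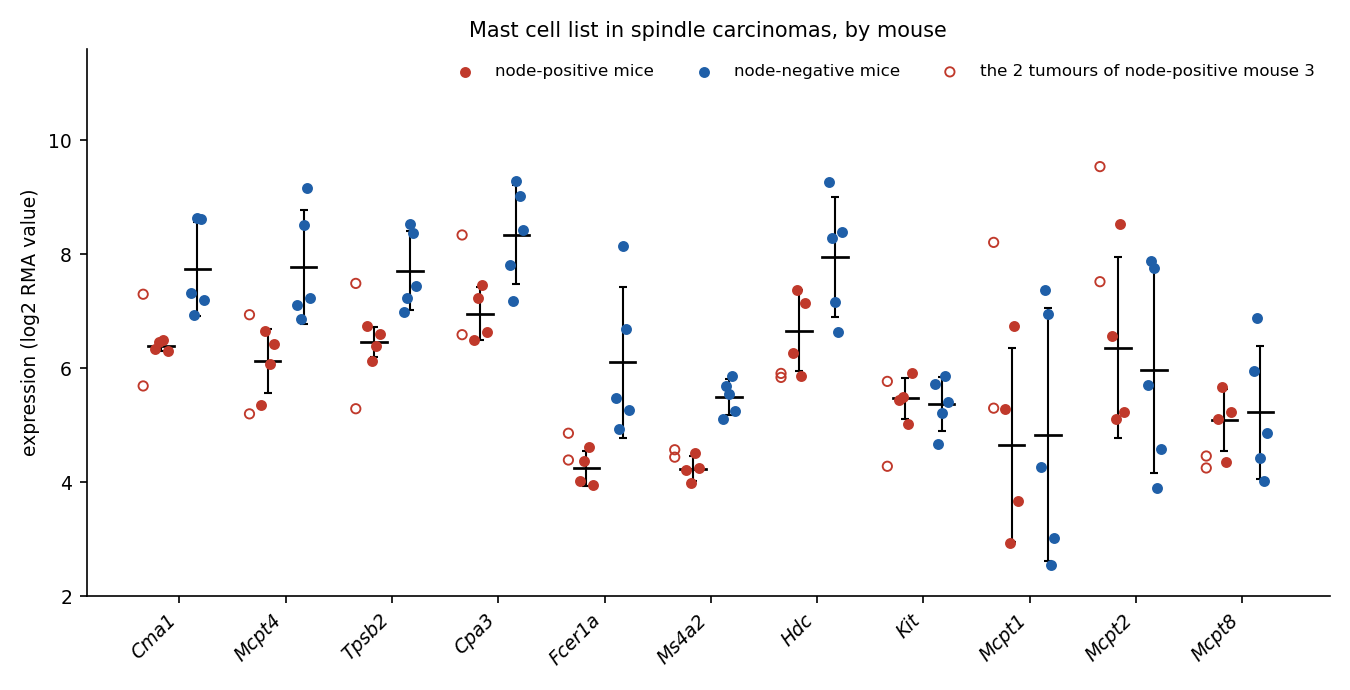
Expression (log2 RMA value, y axis) of the 11 mast cell genes is shown by mouse, node-positive in red left of node-negative in blue, with means and SDs (n = 4 and 5). Open circles are the 2 tumours of node-positive mouse 3. For Ms4a2 both open circles (4.57 and 4.44) lie below every blue point, while for Cma1, Mcpt4, Tpsb2 and Cpa3 the upper open circle lies among the blue points.

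Among lymphocyte transcripts, those of B and plasma cells were lower in most members. Of 19 listed genes 10 were tested and 8 had a negative difference, with a median of −0.35. At an unadjusted limma p under 0.05, 2 (Cr2 and Mzb1) were lower (1.54% of all genes were). Both did not overlap between the groups (0.555% of all genes). The list mean was 6.91, 6.41, 6.35 and 6.47 in node-positive mice, against 7.09, 6.60, 7.37, 7.38 and 7.42 in node-negative mice, and node-positive mouse 1 overlapped with the node-negative mice. Mzb1, a chaperone of antibody-producing cells, was at 3.96 to 4.75 in node-positive mice and at 4.89 to 5.43 in node-negative mice (−0.71 ± 0.21), near the dim end of the scale. Ighm, the heavy chain of IgM, varied too widely for a difference to be read (−1.67 ± 1.09), with values of 6.77 to 10.17 in node-positive mice and of 7.28 to 12.19 in node-negative mice, and 2 of its 6 other probe sets had the opposite sign. Jchain, which joins IgM and IgA multimers, differed by −1.15 ± 0.75.

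Of 27 listed genes of T and NK cells only 12 reached the filter on low values, with a median difference of −0.21. Icos, a costimulatory receptor of activated T cells, was at 4.13 to 4.52 in node-positive mice and at 4.68 to 5.75 in node-negative mice (−0.83 ± 0.24, limma p = 0.00669), and its 2 other probe sets differed by −0.73 and −0.59. The node-positive mean of Icos lay below the array medians, and tumour 1 of node-positive mouse 3, at 4.72, was inside the node-negative range. Cd3d, a chain of the T cell receptor complex, showed −0.48 ± 0.25 with overlap. Granzymes C, D and E had high values in only some tumours. Gzmd, for example, stood at 8.19 in tumour 1 and 2.83 in tumour 2 of node-positive mouse 3, and the median over 8 granzymes, 0.54, dropped to 0.03 without that mouse.

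Macrophage genes had no common direction (21 tested, median −0.10, 8 with a positive difference). Cd14, the receptor for bacterial lipopolysaccharide, was at 9.22 to 10.39 in node-positive mice and at 10.27 to 11.78 in node-negative mice (−0.97 ± 0.34, limma p = 0.0181). Of 26 tested genes of neutrophils and IL1 inflammation, 19 had a negative difference (median −0.45). At an unadjusted limma p under 0.05, 3 were lower and 1, Csf2, was higher (1.54% and 2.10% of all genes were). Mmp8, the collagenase of neutrophil granules, read 5.06, 4.37, 4.58 and 4.70 in node-positive mice, against 9.36, 5.02, 6.98, 5.03 and 7.17 in node-negative mice (−2.04 ± 0.80). The node-positive mice were all low, and the node-negative mice were divided between 2 low and 3 high values. Il1r2, the decoy receptor of IL1, was at 7.23 to 8.42 in node-positive mice and at 7.77 to 10.43 in node-negative mice (−1.34 ± 0.52). Csf2, which encodes GM-CSF, differed by 0.34 ± 0.15 at a level below the array medians in node-negative mice. Ltf, which encodes lactoferrin and is made by epithelia as well as neutrophils, went with tumor_class, at 4.62 in tumour 1 and 13.32 in tumour 2 of node-positive mouse 3.

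The genes of lymphatic growth had no common direction. Of 20 tested ligands and receptors, 6 had a positive and 14 a negative difference (median −0.15). At an unadjusted limma p under 0.05, 2 were higher (2.10% of all genes were). Vegfc, the main growth factor of lymphatic vessels, had values of 9.65, 7.42, 6.73 and 9.01 in node-positive mice, against 6.34, 9.70, 6.88, 6.41 and 6.44 in node-negative mice. It was high in node-positive mice 1 and 4, yet the highest value of all was that of node-negative mouse 2, and the difference of 1.05 had an SE of 0.82. Vegfa, the growth factor of blood vessels, read 8.70, 7.90, 7.90 and 7.73 in node-positive mice, against 7.21, 8.10, 6.4, 7.23 and 6.28 in node-negative mice (1.02 ± 0.38, limma p = 0.0238). Only node-negative mouse 2 overlapped, and another probe set of Vegfa differed by 0.53. Flt1, a receptor for VEGF-A, differed in the same direction (0.76 ± 0.31, limma p = 0.0333), but its 3 other probe sets by only 0.13 to 0.34. Flt4, the receptor for VEGF-C on lymphatic endothelium, differed by −0.53 ± 0.43.

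Markers of the vessels themselves stood at similar or lower levels. The 7 tested markers of lymphatic endothelium had a median of −0.53 and none at an unadjusted limma p under 0.05. Reln, a secreted glycoprotein of lymphatic collectors, was at 4.25 to 6.26 in node-positive mice and at 4.98 to 8.67 in node-negative mice (−1.54 ± 0.71), and Mmrn1, multimerin 1, was at 4.04 to 4.90 in node-positive mice and at 4.05 to 6.39 in node-negative mice. Of 15 markers of blood endothelium, 14 had a negative difference with a median of −0.35, but none was called even at an unadjusted limma p under 0.05. Plvap, the diaphragm protein of fenestrated vessels, was at 8.49 to 9.11 in node-positive mice and at 8.94 to 9.72 in node-negative mice (−0.44 ± 0.20), and Eng, a TGF-β co-receptor, showed −0.53 ± 0.28.

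Of 30 tested chemokines, 13 had a positive and 17 a negative difference (median −0.20). Cxcl12, which guides cells that carry CXCR4, read 6.86, 9.17, 7.69 and 7.72 in node-positive mice, against 9.64, 8.73, 8.39, 10.14 and 10.81 in node-negative mice (−1.68 ± 0.58, limma p = 0.0162). Only node-positive mouse 2 stood inside the node-negative range, and another probe set differed by −2.03. Cxcl13, which draws B cells into follicles, was at 4.72 to 5.93 in node-positive mice and at 5.99 to 11.52 in node-negative mice. The ranges did not overlap by mouse, but node-negative mouse 3 alone stood at 11.52 and the difference of −2.09 had an SE of 1.03. Tumour 1 of node-positive mouse 3, at 6.86, was inside the node-negative range, and tumour 2 was at 4.58. Ccl6 differed by −0.92 ± 0.44. Ppbp, a chemokine of platelets, varied from 4.89 to 13.15 among the mice.

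Among 15 chemokine receptors only 2 had a positive difference, with a median of −0.28. Cx3cr1, the fractalkine receptor of monocytes and macrophages, read 6.66, 5.66, 6.70 and 7.33 in node-positive mice, against 4.96, 5.00, 3.38, 6.28 and 5.89 in node-negative mice (1.49 ± 0.56, limma p = 0.0262). The 2 tumours of node-positive mouse 3 stood apart, at 8.38 and 5.01, and another probe set of Cx3cr1 differed by only 0.36. Ackr1, a decoy receptor on venules that holds chemokines, differed by −0.73 ± 0.27 (limma p = 0.0237), Ccr2, the receptor of inflammatory monocytes, by −0.82 ± 0.46 and Cxcr2, a receptor of neutrophils, by −0.71 ± 0.35. Selp, the P-selectin of activated endothelium and platelets, was at 5.81 to 7.26 in node-positive mice and at 7.18 to 9.54 in node-negative mice (−1.65 ± 0.52, limma p = 0.0109), with node-positive mouse 4 as the only overlap.

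Among 19 tested metalloproteinases and their inhibitors, 9 had a positive difference, none was higher and 3 were lower at an unadjusted limma p under 0.05 (2.10% and 1.54% of all genes were), and the median was −0.06. Timp1, an inhibitor of metalloproteinases, read 10.47, 10.10, 9.90 and 11.16 in node-positive mice, against 11.35, 11.80, 11.51, 12.25 and 11.13 in node-negative mice (−1.20 ± 0.30, limma p = 0.00298). The overlap was slight, as node-positive mouse 4 stood just above node-negative mouse 5. Mmp19 was at 4.14 to 5.63 in node-positive mice and at 5.48 to 7.06 in node-negative mice (−1.34 ± 0.41), and its other probe set gave −1.59. Mmp12, the macrophage elastase, differed in the other direction, by 1.5 ± 0.73. Plaur, the urokinase receptor, was at 7.91 to 8.71 in node-positive mice and at 8.80 to 9.21 in node-negative mice without overlap by mouse (−0.64 ± 0.19), but tumour 1 of node-positive mouse 3, at 9.03, was inside the node-negative range. The lists of plasminogen system and cathepsins and of ADAM and ADAMTS proteases had medians of −0.05 and −0.14.

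Lists named for metastasis showed little. Of 17 tested metastasis suppressors none was at an unadjusted limma p under 0.05 (median 0.09). Of 22 genes described as promoting metastasis, 6 had a positive difference (median −0.18). At an unadjusted limma p under 0.05, none was higher and 2 were lower (2.10% and 1.54% of all genes were). Ptgs2, the inducible cyclooxygenase, was at 7.84 to 9.42 in node-positive mice and at 8.83 to 10.16 in node-negative mice (−1.22 ± 0.36, limma p = 0.00805), and Angptl4, a secreted regulator of lipid uptake and vessel leakage, differed by −0.83 ± 0.37. The 26 integrins and matrix receptors had a median of 0.01.

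**Figure D4:**
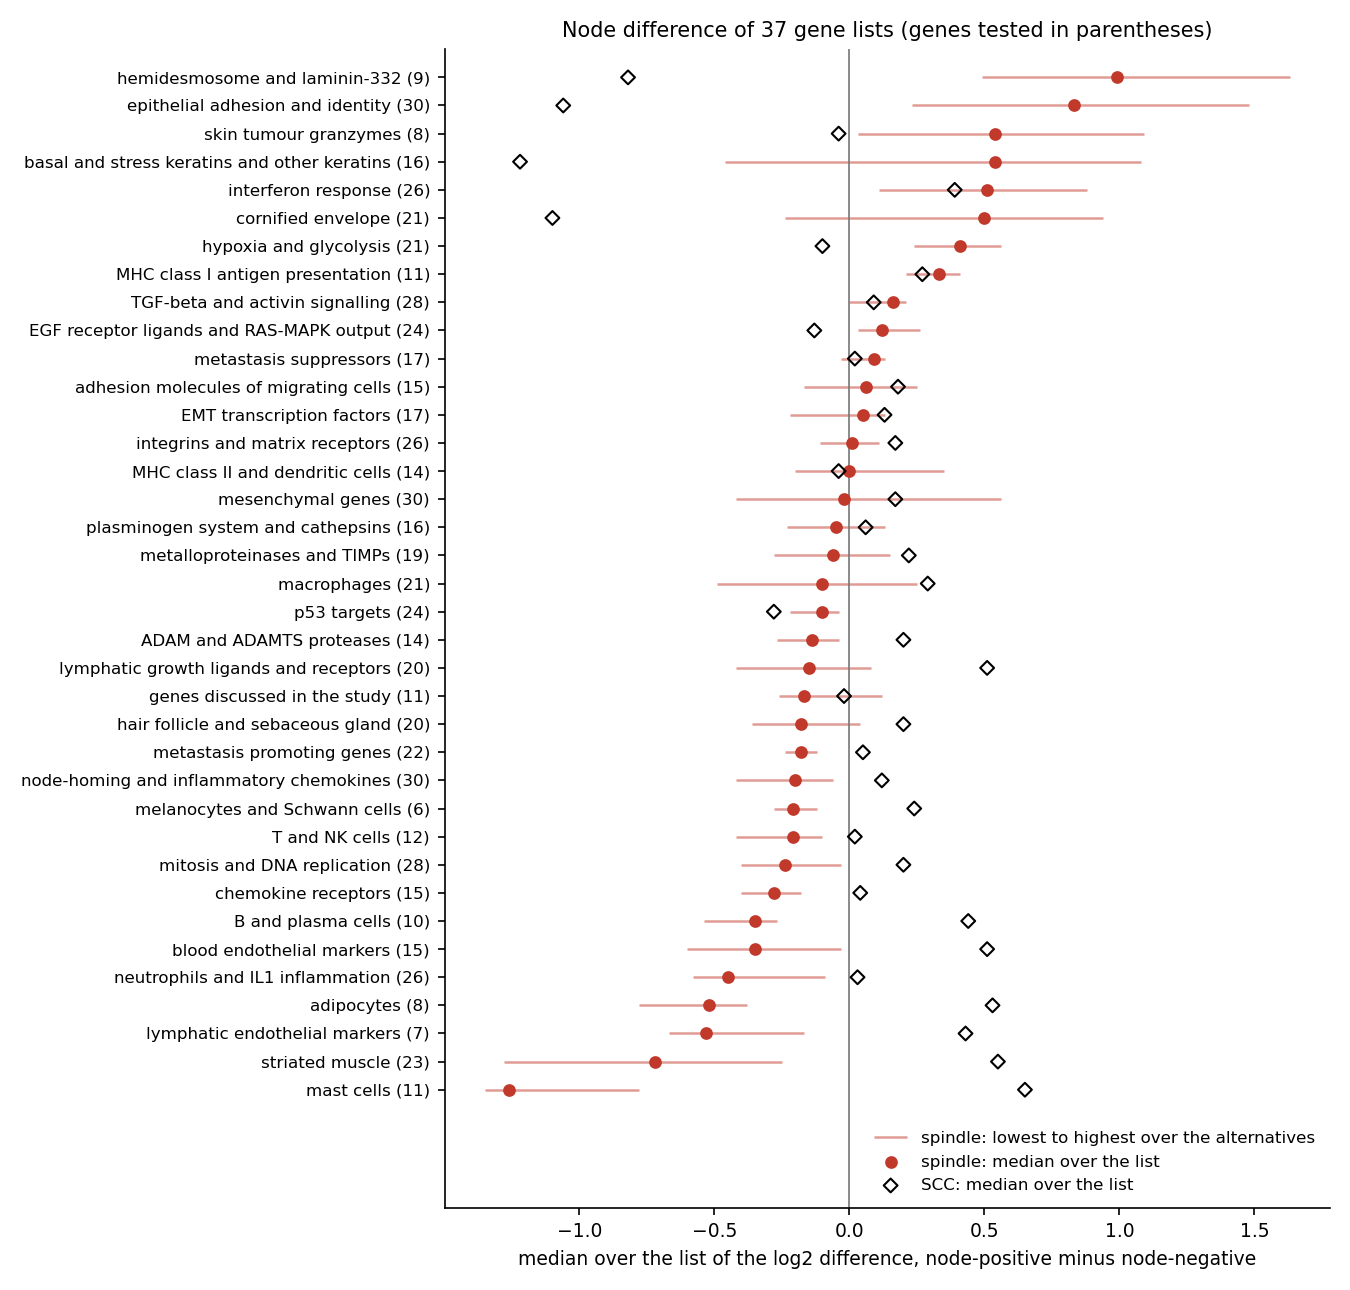
The median log2 difference, node-positive minus node-negative, is plotted for 37 gene lists with the number of genes tested in parentheses. Red points are spindle carcinomas with lines from the lowest to the highest value over the alternatives, and diamonds are SCCs. The mast cell list lies farthest to the left at −1.26 in spindle carcinomas, with its SCC diamond at 0.65, and the epithelial lists at the other end have the widest lines.

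Epithelial transcripts were higher on average in node-positive tumours, within a very wide spread. Of 30 tested genes of epithelial adhesion, 29 had a positive difference (median 0.83), yet none was at an unadjusted limma p under 0.05. The list mean was 8.01, 8.90, 7.05 and 6.68 in node-positive mice, against 8.76, 8.77, 5.45, 5.92 and 4.81 in node-negative mice. Node-negative mice 1 and 2 lay below only node-positive mouse 2, and the other 3 were below all node-positive mice. Epcam, an adhesion molecule of simple epithelia, was at 9.10 to 11.49 in node-positive mice and at 5.07 to 11.91 in node-negative mice (2.02 ± 1.43), and Cldn4, a tight junction claudin, showed 1.96 ± 1.49. Another probe set of Epcam differed by only 0.19. Tumours 1 and 2 of node-positive mouse 3 had Epcam at 6.21 and 12.00, almost the full range of the 10 tumours.

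The class label moved with this difference. A fit with tumor_class as a covariate had to keep every tumour, with mouse as a random effect, and is set against the same fit without the covariate. The median of the adhesion list was 0.23 with the covariate and 0.81 without it, that of 16 keratins −0.46 and 0.33, that of 21 cornified envelope genes −0.24 and 0.39, and that of the 9 genes of hemidesmosomes and laminin-332 0.49 and 0.95. With mouse means, as in the other results, these medians were 0.83, 0.54, 0.50 and 0.99. Lama3, the laminin α3 chain of the epidermal basement membrane, was at 9.65 to 10.81 in node-positive mice and at 3.23 to 11.68 in node-negative mice (2.76 ± 1.69). Both tumours of node-positive mouse 3 had Lama3 at a high level (9.75 and 9.55), unlike Krt14, a basal keratin, at 5.06 in tumour 1 and 13.79 in tumour 2, or its partner Krt5, at 5.51 and 13.44.

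Factors and markers of the mesenchymal state had no common direction. The 17 transcription factors of epithelial to mesenchymal transition had a median of 0.05 and the 30 mesenchymal genes of −0.02. Sox9, a factor of hair follicle and cartilage progenitors, differed by 1.13 ± 0.53 and Twist2, a factor of dermal fibroblasts, by −0.93 ± 0.43. Cdh11, a cadherin of mesenchyme, was at 9.14 to 11.72 in node-positive mice and at 3.69 to 10.30 in node-negative mice, in which node-negative mouse 3 alone was low. Pdgfra, a growth factor receptor of fibroblasts, and Dcn, the matrix proteoglycan decorin, stood lower, by −1.35 ± 0.63 and −0.94 ± 0.43. The 2 other probe sets of Pdgfra differed by −1.79 and −1.14, and another of Dcn by only −0.17. In TGF-β signalling (28 genes, median 0.16), the ligand Tgfb2 differed by 1.03 ± 0.52 and the co-receptor Tgfbr3 by −1.0 ± 0.52.

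Genes of hypoxia and glycolysis were higher in most members. Of 21 tested genes, 19 had a positive difference (median 0.41), 3 (Vegfa, Egln1 and Pdk1) were higher at an unadjusted limma p under 0.05 and 1, Egln1, did not overlap. Over all genes these shares were 50.7%, 2.10% and 0.594%. Egln1, an oxygen sensor that marks HIF1α for destruction, read 8.33, 8.74, 8.49 and 8.27 in node-positive mice, against 7.83, 8.08, 7.79, 7.91 and 7.37 in node-negative mice (0.66 ± 0.18, limma p = 0.00471), although tumour 1 of node-positive mouse 3 stood at 7.91. Another probe set of Egln1 differed by 0.35. The list mean was 9.33, 9.26, 9.55 and 9.00 in node-positive mice, against 9.00, 9.49, 8.56, 8.87 and 8.45 in node-negative mice, with node-negative mouse 2 inside the node-positive range and node-negative mouse 1 at its lower end. Egln3, a hypoxia-induced relative of Egln1, was at 7.94 to 10.04 in node-positive mice and at 6.23 to 9.70 in node-negative mice (1.32 ± 0.68), and Pfkl, a phosphofructokinase of glycolysis, showed 0.86 ± 0.42. The median of the list ranged from 0.24 (without node-positive mouse 3) to 0.56 over 26 alternatives.

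Interferon-induced genes were led by a single tumour. Of 26 tested genes 24 had a positive difference (median 0.51), but the list mean was 8.97 in tumour 1 and 5.87 in tumour 2 of node-positive mouse 3, while all other mice of both groups lay between 5.83 and 6.48. The median was 0.88 with only tumour 1 of that mouse, 0.11 with only tumour 2 and 0.28 without the mouse. Ifit3, an antiviral protein, stood at 10.19 in tumour 1 and at 3.99 in tumour 2, and Ifit1 at 9.72 and 4.95. Irf1, a transcription factor of the interferon-γ response, was at 9.08 to 9.56 in node-positive mice and at 8.55 to 9.08 in node-negative mice, so that the ranges met (0.45 ± 0.17, limma p = 0.0233).

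MHC class I genes stood slightly higher (10 of 11 with a positive difference, median 0.33), with list means of 8.67, 8.85, 9.27 and 8.90 in node-positive mice, against 8.20, 8.49, 8.73, 8.72 and 8.58 in node-negative mice. B2m, the light chain of class I molecules, showed 0.47 ± 0.22. Nlrc5, their transcriptional activator, read 6.08, 5.91, 6.29 and 3.72 in node-positive mice, against 4.38, 3.70, 3.96, 4.70 and 3.79 in node-negative mice (1.39 ± 0.50, limma p = 0.0205). It was high in 3 of 4 node-positive mice, and node-positive mouse 4 was as low as the node-negative mice. The node-negative mean of Nlrc5 lay below the array medians. The list median stayed between 0.21 and 0.41 in 25 alternatives.

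Transcripts of tissues around a skin tumour were lower in most members. All 8 tested adipocyte genes had a negative difference (median −0.52), as had 22 of 23 striated muscle genes (median −0.72). At an unadjusted limma p under 0.05, 1 adipocyte gene and no muscle gene were lower (1.54% of all genes were). The muscle mean was 4.59, 6.35, 7.41 and 6.45 in node-positive mice, against 8.57, 7.26, 6.42, 6.20 and 6.42 in node-negative mice. Without the low value of node-positive mouse 1 the median of the list was −0.25, and without node-positive mouse 3 it was −1.28. Lpl, lipoprotein lipase, was at 6.31 to 8.25 in node-positive mice and at 6.88 to 9.58 in node-negative mice (−1.16 ± 0.58). Of 20 tested genes of hair follicles and sebaceous glands, 5 had a positive and 15 a negative difference (median −0.18, with the other sign in 1 alternative). Lgr6, a follicle stem cell receptor, differed by 1.55 ± 1.04. Elovl3 and Far2, which make long lipids and waxes in sebaceous glands, were each high in node-positive mouse 2 alone among node-positive mice. Elovl3 read 4.21, 6.37, 4.36 and 4.22 in node-positive mice, against 8.51, 5.89, 6.55, 8.79 and 4.81 in node-negative mice (−2.12 ± 0.85), and Far2 differed by −1.82 ± 0.74. The adipocyte, muscle and mast cell lists all had negative medians. The adipocyte mean was 5.72, 6.54, 5.49 and 5.49 in node-positive mice, against 7.12, 6.58, 6.02, 6.32 and 6.01 in node-negative mice. Only node-positive mouse 2 stood inside the node-negative range. Node-negative mouse 3 had the highest mast cell mean (7.29), with a muscle mean of 6.42 and an adipocyte mean of 6.02. The part of fat and muscle tissue in the mast cell values was not tested.

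Dct, a melanocyte enzyme of pigment synthesis, had a limma p of 0.000297 at a level below the array medians in both groups. It read 3.28, 3.31, 3.18 and 3.26 in node-positive mice, against 4.16, 4.04, 3.92, 4.45 and 4.68 in node-negative mice (−0.99 ± 0.18). The 6 tested genes of melanocytes and Schwann cells had a median of −0.21, and only Dct was at an unadjusted limma p under 0.05 (1.54% of all genes were lower). Of the mice, 2 of 4 node-positive and 2 of 5 node-negative were agouti, and the part of coat colour in the Dct values was not tested.

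Genes of proliferation stood slightly lower in most members. Of 28 tested genes of mitosis and DNA replication, 23 had a negative difference (median −0.24), and Pcna, the sliding clamp of DNA polymerases, was the only one at an unadjusted limma p under 0.05 (11.13 to 11.49 in node-positive mice, 11.34 to 12.10 in node-negative mice, −0.44 ± 0.18). Of 24 p53 targets 15 had a negative difference (median −0.10), and 2 of them, Ccng1 (cyclin G1, −0.69 ± 0.30) and Trp53inp1, were at an unadjusted limma p under 0.05. Of all genes, 1.54% were lower at that level. The EGF receptor ligands and outputs of RAS signalling (24 genes) had a median of 0.12. None of 11 tested genes that the study discusses by name was at an unadjusted limma p under 0.05, among them Gzme (1.32 ± 0.83), Tslp (1.40 ± 1.08) and Il18 (−0.77 ± 0.44).

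By position in the genome, genes on chromosomes 3 and 13 were higher in node-positive tumours more often than genes elsewhere. This grouping was made after Supt20, Tuft1, Ap1ar, Cog6 and Ankrd50 had been found to lie on chromosome 3, so it is a description. Of 653 tested genes on chromosome 3, 57 (8.73%) were higher and 7 (1.07%) lower at an unadjusted limma p under 0.05, against 2.10% and 1.54% of all genes. Of 453 genes on chromosome 13 these were 31 (6.84%) and 2 (0.442%). In all, 467 of the genes on chromosome 3 (71.5%) and 336 of those on chromosome 13 (74.2%) had a positive difference, against 50.7% of all genes. The medians were 0.19 and 0.17, and in SCCs they were 0.05 and 0.09. At the other end only 28.9% of 311 genes on chromosome 18 had a positive difference.

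The chromosome 3 signal differed in size between mice. The mean of its genes, relative to the mean of all genes on the same array, was 0.55, 0.27, 0.07 and 0.09 in node-positive mice, against 0.04, 0.04, 0.01, 0.11 and 0.06 in node-negative mice. Node-positive mice 1 and 2 stood above all others, and node-positive mice 3 and 4 lay within the node-negative range. For 18 of the 653 genes, though, every node-positive mouse lay above every node-negative mouse, against 76 of all 12790 genes (0.594%). On chromosome 13 the means were 0.29, 0.37, 0.17 and 0.06 in node-positive mice, against −0.07, 0.09, 0.11, 0.08 and 0.07 in node-negative mice, again highest in node-positive mice 1 and 2. Without node-positive mouse 1 the count of higher genes on chromosome 3 was 36 (5.51%, against 1.70% of all genes) with a median of 0.08. Without node-positive mouse 2 it was 59 (9.04%, against 2.04% of all genes) with a median of 0.22. Among the mice whose p53 label is not mutant it was 18 (2.76%, against 1.02% of all genes). On chromosome 13 the count was 18 (3.97%) without node-positive mouse 1, 12 (2.65%) among mice not labelled p53 mutant and 58 (12.8%, against 2.94% of all genes) without node-positive mouse 4. The 653 genes were read in the same 9 mice and are not separate observations.

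**Figure D5:**
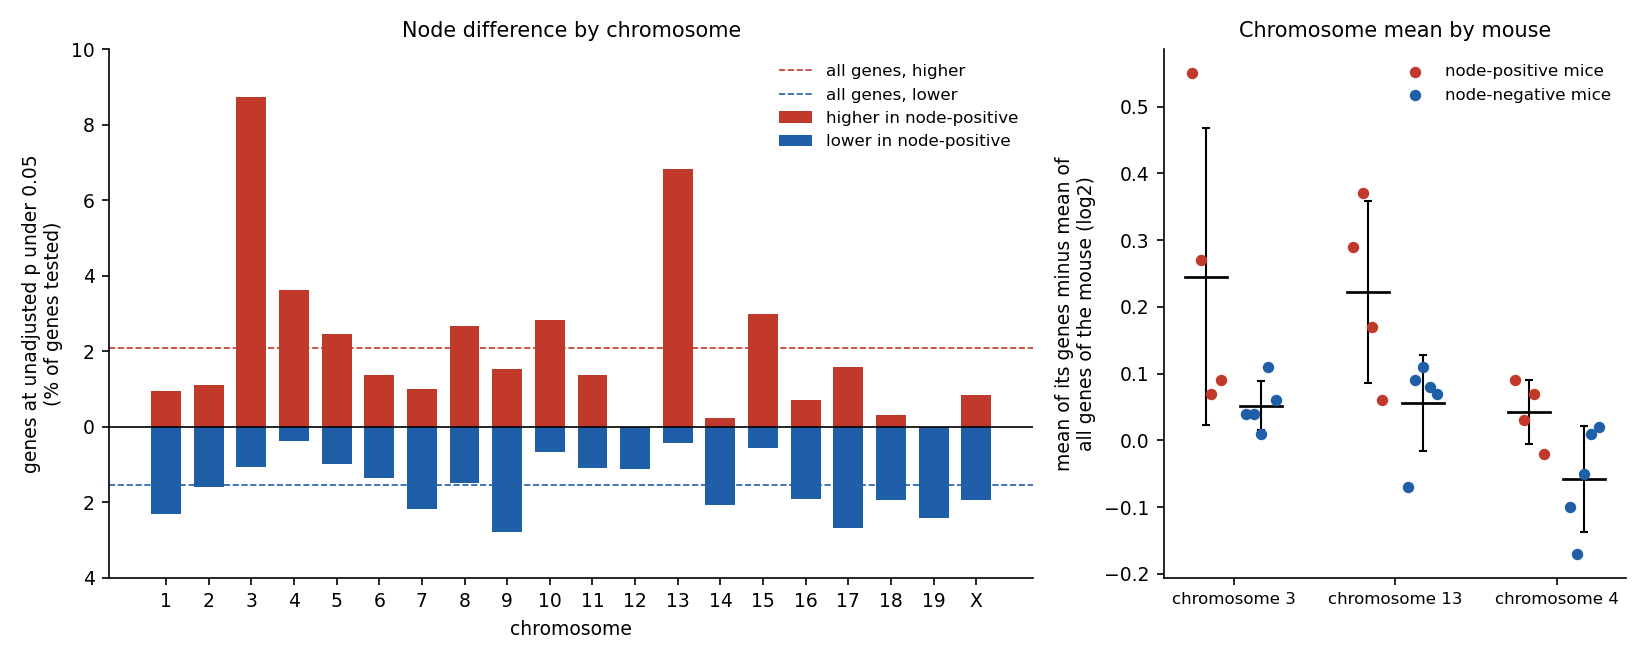
Left, bars give for each chromosome the percentage of tested genes that were higher (up, red) or lower (down, blue) in node-positive spindle carcinomas at an unadjusted limma p under 0.05, with dashed lines at 2.10% and 1.54% of all genes. Right, the mean of the genes of chromosomes 3, 13 and 4 minus the mean of all genes (log2) is shown for each mouse with means and SDs (n = 4 and 5), node-positive left of node-negative. Chromosomes 3 (8.73%) and 13 (6.84%) stand above the rest, and on chromosome 3 node-positive mouse 1 is at 0.55.

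Whether the node difference of spindle carcinomas was also that of SCCs was asked with 10 node-positive and 14 node-negative SCC mice. Both SCC groups held females and males, tumours with and without the p53 mutant label, and well, moderately and poorly differentiated tumours. No gene passed the test of the difference between the 2 histologies (0 of 12790, 0%, limma, smallest adjusted p = 0.652). At an unadjusted limma p under 0.05, the difference was more positive in spindle carcinomas for 465 genes (3.64%) and more negative for 471 (3.68%). Within SCCs limma also called no gene (0 of 12790, 0%), with 633 higher and 552 lower at an unadjusted p under 0.05.

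Mast cell genes ran in opposite directions in the 2 histologies. The median over the list was −1.26 in spindle carcinomas and 0.65 in SCCs, where list means were 6.60 ± 0.55 in node-positive and 6.07 ± 0.85 in node-negative mice (SD). In SCCs 7 of the 11 genes were higher at an unadjusted limma p under 0.05, as were 633 of all 12790 genes. At that level 6 of 11 were lower in the interaction (median −1.90), against 3.68% of all genes. Cma1 differed by −1.35 in spindle carcinomas and by 1.37 in SCCs (interaction −2.72, limma p = 0.000587, adjusted p = 0.652). Among genes with a more negative difference in spindle carcinomas, Mcpt4 and Fcer1a were in the 5 of smallest interaction p, at −2.62 and −3.03. Cr2 was the first of these, with −2.07 in spindle carcinomas and 1.17 in SCCs (interaction −3.25, limma p = 0.00013). Slc43a3, a purine transporter found in endothelium, and Thsd1, a thrombospondin-domain protein of endothelium, completed the 5 at −1.85 and −0.63.

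Several other stromal lists had medians of opposite sign in the 2 histologies, with smaller sizes. Blood endothelial markers had a median of −0.35 in spindle carcinomas and 0.51 in SCCs, adipocytes −0.52 and 0.53, striated muscle −0.72 and 0.55, B and plasma cells −0.35 and 0.44, and lymphatic growth genes −0.15 and 0.51. In the interaction 5 of 15, 2 of 8, 3 of 23, 1 of 10 and 1 of 20 of their genes were lower at an unadjusted limma p under 0.05, against 3.68% of all genes. Other lists of the stroma and of immune cells showed little of this: mesenchymal genes had medians of −0.02 in spindle carcinomas and 0.17 in SCCs, T and NK cells −0.21 and 0.02, neutrophils and IL1 inflammation −0.45 and 0.03, and MHC class II and dendritic cells −0.00 and −0.04. For Cxcl12 the difference was −1.68 in spindle carcinomas and 1.19 in SCCs (interaction limma p = 0.00186). Epithelial lists ran the other way, with the adhesion list at 0.83 in spindle carcinomas and −1.06 in SCCs. In the interaction 10 of its 30 genes were higher at an unadjusted limma p under 0.05, against 3.64% of all genes. The adhesion mean was 7.66 ± 1.00 in node-positive and 6.74 ± 1.89 in node-negative spindle mice, and 7.61 ± 1.63 in node-positive and 8.67 ± 0.67 in node-negative SCC mice (SD). Most of these SCCs with tumor_class 1 were node-positive. No fit of the interaction included tumor_class, so its part in the opposite signs was not tested. Interferon and MHC class I lists had medians of the same sign in both histologies (0.51 and 0.33 in spindle carcinomas, 0.39 and 0.27 in SCCs).

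The 5 genes with a more positive node difference in spindle carcinomas and the smallest p, Ap1ar, Cog6, Prkci, Acp6 and Ankrd50, all lie on chromosome 3. Ap1ar, a regulator of the AP-1 adaptor of vesicle transport, read 8.90, 8.61, 8.02 and 8.01 in node-positive spindle mice, against 7.68, 7.51, 7.48, 7.52 and 7.57 in node-negative spindle mice (0.84 ± 0.20, interaction 0.99, limma p = 5.6e-05). Cog6, a subunit of the Golgi tethering complex, had 8.37, 7.81, 7.44 and 7.61 in node-positive spindle mice, against 7.08, 7.04, 6.76, 7.04 and 7.02 in node-negative spindle mice (0.82 ± 0.20). In both, node-positive mice 1 and 2 were highest, as in the chromosome means, but mice 3 and 4 also lay above the node-negative range. Prkci, an atypical protein kinase C of cell polarity, was at 8.84 to 9.91 in node-positive spindle mice and at 8.40 to 8.86 in node-negative spindle mice (0.70 ± 0.23). Ankrd50, which sorts cargo from endosomes, differed by 0.79 ± 0.22 and Acp6, a lysophosphatidic acid phosphatase, by 0.49 ± 0.29.

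None of the labels of the mice that were compared passed its test. Papillomas at 20 weeks numbered 0, 9, 6 and 23 in node-positive mice, against 12, 0, 0, 2 and 2 in node-negative mice (means 9.5 and 3.2, exact permutation test, two-sided p = 0.27). The first papilloma came after 10, 10, 10 and 12 weeks in node-positive mice, against 10, 12, 24, 14 and 14 weeks in node-negative mice (means 10.5 and 14.8, exact permutation test, two-sided p = 0.143). The node-positive mice were early and close together, and node-negative mouse 3 was late. The smallest two-sided p that 4 against 5 mice allow is 0.0159. Of 6 labels tested, with p53, sex and coat compared by Fisher's exact test, the smallest adjusted p was 0.73.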

How the data were processed

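The log2 values used here were deposited by the authors, who had run RMA (background correction, quantile normalisation across arrays and a summary for each probe set). A shift of most genes on an array would therefore not show. The version of RMA is not given in the sources used here, and the number of arrays limits the precision.

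Of 45101 probe sets 34958 had 1 gene symbol. Symbols were updated through the RefSeq table of GRCm38.p6 (34754 matched), which was used for names and chromosomes only. The probe set with the highest mean over 60 arrays stood for each of 18193 genes, and the filter kept 12790, which exceeded the median of the array on 8 or more of the arrays.

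Tumours of the same mouse were averaged. Groups were compared with limma 3.58.1 in R 4.3.3 (threshold adjusted p = 0.05), and the difference between spindle carcinomas and SCCs by an interaction in a model of 33 mice. Figures were drawn with matplotlib 3.10.9. The fits were tested on simulated data. Genes are named by rank (up to 10 each way by p among non-overlapping genes with a difference of at least 1), as the up to 4 members of each list with the largest difference and any that did not overlap, if the study discusses them, or as the 5 of smallest p each way in the interaction. Members, lists and tests were chosen with earlier results of these data known. Alternatives changed the filter, the probe set, the scaling, the fit, the tumour kept from mouse 3, covariates (p53, sex, tumor_class) and left out each mouse in turn. The result of 1 list is not reported here.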

Additional observations from a re-analysis of the deposited data

Results flagged for a closer look

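Within each group, the highest and lowest mouse were set against the rest for 288 combinations of a group with a named gene, a list mean or a label, and 15 values stood far from the others by Dixon's ratio at the 95% level. Chance flags about 1 in 20 groups. In node-positive mice, Cdh11 was 11.72 in mouse 4 with the nearest other mouse at 9.55, Nlrc5 was 3.72 in mouse 4 with the nearest at 5.91, and Elovl3 was 6.37 in mouse 2 with the nearest at 4.36. The mast cell mean was 6.01 in node-positive mouse 3 with the nearest at 5.62, and the first papilloma of node-positive mouse 4 came at 12 weeks, with the others at 10.

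In node-negative mice, Cd36 was 9.48 in mouse 4 (nearest other mouse 7.79), Vegfc was 9.70 in mouse 2 (nearest 6.88), Ackr1 was 7.61 in mouse 1 (nearest 7.03) and Cdh11 was 3.69 in mouse 3 (nearest 9.00). Kif11, a mitotic kinesin, was 5.61 in node-negative mouse 1 (nearest 6.82) and Cog6 was 6.76 in mouse 3 (nearest 7.02). The chemokine mean was 6.97 in node-negative mouse 3 (nearest 7.46) and the mean of TGF-β signalling 8.42 in mouse 4 (nearest 8.05). Node-negative mouse 1 had 12 papillomas at 20 weeks (nearest 2), and node-negative mouse 3 had its first papilloma at 24 weeks (nearest 14).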

How the results depend on the processing

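No alternative called a gene, in 27 settings of the spindle comparison (smallest adjusted p = 0.0533, limma without node-negative mouse 5) and 18 of the interaction (0.0727, limma without node-positive mouse 4). Genes at an unadjusted limma p under 0.05 numbered 466, against 279 with only tumour 1 of node-positive mouse 3, 281 among mice not labelled p53 mutant, 972 over every probe set and 305 to 627 with a mouse left out (305 without node-positive mouse 3). In the interaction they numbered 936, against 1630 over every probe set and 569 to 1375 with a mouse left out (569 without node-positive mouse 2). Genes without overlap were 76 higher and 71 lower, or 26 and 34 with each tumour on its own, a setting chosen after seeing the data, and 251 to 483 in both directions together with a mouse left out.

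Of 2670 values of 103 genes under alternatives 2643 kept their direction and 27, in 8 genes, changed sign. The setting without the moderately differentiated tumour leaves out node-negative mouse 2, so it is the same fit as the one without that mouse. Both are counted among the settings, and the sign changes of Kit, Mcpt1 and Mcpt8 in this fit are counted under each. Kit (0.09) was −0.10 with only tumour 1 of node-positive mouse 3, −0.06 as the mean of its probe sets, −0.0045 with tumor_class and every tumour kept, −0.09 without the moderately differentiated tumour and −0.09 to 0.24 with a mouse left out. Mcpt1 (−0.18) was 0.16 with mouse as a random effect, 0.19 with only tumour 2, 0.46 without the moderately differentiated tumour and −0.87 to 0.46 with a mouse left out. Mcpt2 (0.39) was −0.33 with p53 as a covariate, −0.32 in mice not labelled p53 mutant and −0.34 to 0.87 with a mouse left out. Mcpt8 (−0.13) was 0.28 without the moderately differentiated tumour, 0.64 in mice not labelled p53 mutant and −0.44 to 0.28 with a mouse left out. In mice not labelled p53 mutant Flt4 was 0.12 and Tslp −0.35. Krt14 was −0.03 with only tumour 1 and −0.37 with tumor_class, and Krt5 was −0.15 with tumor_class. The cause of these changes was not tested. No paired analysis was possible because replicate numbers only name the mice.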
